A study of Homo sapiens with 30 samples.

Results

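A small set of chromatin regions had a called peak in every day 4 neural population that H1 cells were taken to, whichever route they took. The same regions had no called peak in any earlier population, which does not show that they were closed. The set was selected on the peak lists themselves. Peaks of 10 lists on chromosomes 1 to 22 were merged where they overlapped by 1 bp or more, and a list was counted as open at a merged region where it had a peak there. A region was taken where all 6 day 4 lists were open and none of the 4 earlier lists was. This gave 453 of 476170 merged regions, or 0.0951%. They were 0.468% of the 96805 regions open in all 6 day 4 lists and 0.272% of the 166467 regions open in day 4 lists only. These numbers follow from the rule and carry no test. They are called day 4 common regions here.

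Chromatin accessibility was measured by Omni-ATAC-seq, in which the Tn5 transposase cuts and tags DNA that is not wrapped tightly in nucleosomes, so that a peak marks an accessible stretch such as a promoter, an enhancer or an insulator. H1 is an established human embryonic stem cell line, used here as wild type. There were 10 populations with 3 biological replicates each, 30 libraries in all, from 50000 cells per library. The day 0 population was pluripotent (hPSC). DE, definitive ectoderm, had spent day 1 in a medium called CDM2 with A8301, LDN193189, C59 and Trametinib, which block TGF-beta/activin receptors, BMP receptors, WNT secretion and MEK. From DE, 24 h in A8301, LDN193189, C59 and the survival agent Thiazovivin gave anterior neural ectoderm (aNE) on day 2. The same time in A8301, LDN193189, Thiazovivin, 50 nM of the retinoic acid receptor agonist TTNPB, 20 ng/mL FGF2 and 1 µM of the WNT pathway inhibitor XAV939 gave posterior neural ectoderm (pNE). Each was then taken to day 4 in telencephalon, midbrain or hindbrain media, giving aNE_T, aNE_M, aNE_H, pNE_T, pNE_M and pNE_H. The forebrain medium of day 3 held XAV939, LDN193189 and FGF2, and the recipes of the other day 3 and day 4 media were not used here. All 6 day 4 populations had passed through DE, and all came from 1 line. Cells collected on day 2 were plated at 37500 per cm2, cells going on from aNE at 75000 per cm2 and cells going on from pNE at 150000 per cm2, so origin and density cannot be told apart on day 4.

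During neural induction, embryonic cells lose pluripotency enhancers and gain elements bound by neural SOX, POU, RFX, homeodomain and basic helix-loop-helix factors. Many such elements lie far from promoters, in introns or between genes, and act on genes by looping. Regional elements for forebrain, midbrain and hindbrain come on top of elements that all neural progenitors share. The day 4 common regions were chosen by the timing of their peaks alone.

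The regions touched 19 promoter windows, a window being the 250 bases before to 50 bases after a RefSeq start site. In 13 of the 19, the window held bases that lay in a peak of all 6 day 4 lists, called the common stretch. Of these, 6 held the SOX string ACAAAG, the E-box CAGCTG or the RFX core GTTGCC inside the common stretch, and they are printed to show where that stretch falls against the start site. Each is written 5′ to 3′ on the strand of its gene from the RefSeq promoter sequences of GRCh38.p14, with the common stretch in capitals.
LINC00635 (chr3:107878019-107878318, GRCh38.p14, minus strand): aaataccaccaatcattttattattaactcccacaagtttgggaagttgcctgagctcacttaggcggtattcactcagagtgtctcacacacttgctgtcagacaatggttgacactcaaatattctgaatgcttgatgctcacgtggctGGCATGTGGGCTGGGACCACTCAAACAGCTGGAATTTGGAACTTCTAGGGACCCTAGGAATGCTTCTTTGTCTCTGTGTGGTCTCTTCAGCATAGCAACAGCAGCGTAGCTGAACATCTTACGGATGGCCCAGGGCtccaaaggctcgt
ENOX1-AS2 (chr13:43448602-43448901, GRCh38.p14, plus strand): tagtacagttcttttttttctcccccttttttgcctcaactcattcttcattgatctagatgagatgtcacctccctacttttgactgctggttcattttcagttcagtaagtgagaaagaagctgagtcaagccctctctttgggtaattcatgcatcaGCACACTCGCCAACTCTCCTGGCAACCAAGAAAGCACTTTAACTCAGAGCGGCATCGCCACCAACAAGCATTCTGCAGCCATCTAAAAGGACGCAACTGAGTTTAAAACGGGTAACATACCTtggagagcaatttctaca
LINC02404 (chr12:91876878-91877177, GRCh38.p14, plus strand): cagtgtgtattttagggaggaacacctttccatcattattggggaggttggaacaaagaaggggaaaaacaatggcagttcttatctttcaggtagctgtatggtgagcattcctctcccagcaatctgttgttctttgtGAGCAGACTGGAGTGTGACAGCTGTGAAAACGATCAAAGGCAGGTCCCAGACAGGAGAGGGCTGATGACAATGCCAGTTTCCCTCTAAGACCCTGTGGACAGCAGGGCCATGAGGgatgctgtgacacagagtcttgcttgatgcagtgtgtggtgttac
KDM2B (chr12:121580974-121581273, GRCh38.p14, minus strand): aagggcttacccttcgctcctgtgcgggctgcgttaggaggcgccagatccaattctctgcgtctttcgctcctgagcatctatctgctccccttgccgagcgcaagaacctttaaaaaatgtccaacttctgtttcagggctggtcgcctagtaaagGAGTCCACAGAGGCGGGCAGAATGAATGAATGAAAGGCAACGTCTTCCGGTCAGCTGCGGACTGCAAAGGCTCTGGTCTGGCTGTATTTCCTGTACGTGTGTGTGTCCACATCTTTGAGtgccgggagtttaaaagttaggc
SLAMF9 (chr1:159954188-159954487, GRCh38.p14, minus strand): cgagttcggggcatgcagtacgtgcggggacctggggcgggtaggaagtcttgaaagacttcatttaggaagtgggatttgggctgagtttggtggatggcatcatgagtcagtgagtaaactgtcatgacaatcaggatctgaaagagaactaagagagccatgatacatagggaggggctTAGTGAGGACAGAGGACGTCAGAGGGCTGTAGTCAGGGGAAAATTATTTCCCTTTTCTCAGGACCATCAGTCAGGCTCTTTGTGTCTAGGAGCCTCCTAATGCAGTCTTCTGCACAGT
BAIAP3 (chr16:1335947-1336246, GRCh38.p14, plus strand): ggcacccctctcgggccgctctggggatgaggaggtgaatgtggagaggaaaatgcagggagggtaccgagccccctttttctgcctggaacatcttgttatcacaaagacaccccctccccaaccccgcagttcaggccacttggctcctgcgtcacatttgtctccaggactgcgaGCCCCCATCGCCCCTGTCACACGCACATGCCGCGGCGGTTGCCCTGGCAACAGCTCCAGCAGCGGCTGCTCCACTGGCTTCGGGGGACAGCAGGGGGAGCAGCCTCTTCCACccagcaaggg

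LINC00635, ENOX1-AS2 and LINC02404 are long non-coding RNAs. KDM2B encodes a histone demethylase that binds unmethylated CpG islands and recruits a Polycomb complex, SLAMF9 a receptor of the SLAM family on immune cells, and BAIAP3 a protein of dense-core vesicle release. For KDM2B, SLAMF9 and BAIAP3 the start site is an internal one, since these genes reach farther upstream. The common stretch covered 136 bases of the LINC00635 window, 122 of ENOX1-AS2, 119 of KDM2B, 118 of SLAMF9, 115 of LINC02404 and 112 of BAIAP3. In all 6 windows it spanned the start site. The other windows with common bases belonged to ADPRHL1 (183 bases), LOC105378515 (115), LINC01861 (95), ILDR2 (87), ISX (81), LINC01656 (39) and SH3TC1 (13).

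Motifs were searched as plain strings on both strands of the whole window, including bases outside the region that touched it. The SOX string ACAAAG was present in 9 of the 19 windows (47.4%), against 16.0% of all 33725 promoter windows, 24.5% of the 1148 windows that touch another region open in day 4 lists only, and 11.5% of the 19347 that touch a region open in all 10 lists. The E-box CAGCTG, bound by basic helix-loop-helix factors, was also present in 9 (47.4%), against 18.0%, 24.2% and 17.5% of the same classes. The RFX core GTTGCC was present in 8 (42.1%), against 12.2%, 12.6% and 12.8%. In BAIAP3 it was followed after 2 bases by its reverse complement, a pair beginning at position -35 from the start site and inside the common stretch. That pair was present in 0.0949% of all windows, and it was added to the search after the sequence had been seen. Some matches lay outside the day 4 common region itself, which overlapped the window by 2 bases at CCDC141, 24 at LOC105378554 and 92 at CCNP. This was so for ACAAAG in ILDR2, CCNP and LOC105378554. It was also so for CAGCTG in ILDR2, CCNP and CCDC141, and for GTTGCC in ILDR2. With 19 windows, 1 window is 5.26%, and no test was made.

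Other strings differed less from their background in number of windows. CATCTG, another E-box, was present in 4 windows (21.1%) against 14.7% of all windows, the homeodomain string TAATTA in 2 (10.5%) against 4.91%, and the AP-2 string GCCNNNGGC in 3 (15.8%) against 23.3%. ATTTGCAT, the POU octamer, was in none of the 19 windows and in 1.75% of all windows. Neither the full nuclear factor I string, TTGGC with GCCAA after 5 bases, present in 0.0297% of all windows, nor the retinoic acid receptor repeat of AGGTCA after 5 bases, in 0.00593%, was in these 19. The windows had a median GC content of 51.0%, between the 47.0% of the other day 4-only windows and the 65.7% of windows open in all 10 lists. Inside the 13 common stretches themselves, ACAAAG occurred in 2, CAGCTG in 3 and GTTGCC in 3. The other strings searched were the SOX strings ATTGT (26.3% of the 19, 27.4% of all windows) and ACAATG (21.1%, 10.8%), the TEAD string GGAATG (5 of 19 and 4735 of 33725 windows), the CTCF part GGTGGC (36.8%, 24.4%), the AP-1 string TGAGTCA (15.8%, 4.91%), the GATA string AGATAAG (5.26%, 2.66%) and the TCF strings CTTTGATC (5.26%, 0.646%) and CTTTGATG (5.26%, 0.649%). ACAATG holds ATTGT on its other strand, and the core GTTGCC is part of the RFX pair, so their matches overlap. A match describes the letters and shows no binding.

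The microRNA hairpin closest to a day 4 common region was MIR219A1, which begins 281 bp beyond a region on chromosome 6 (chr6:33206718-33207554). Its mature microRNA is known for promoting oligodendrocyte maturation. It is printed from RefSeq with its seed, bases 2 to 8, in capitals.
hsa-miR-219a-5p (chr6:33207855-33207875, GRCh38.p14, plus strand): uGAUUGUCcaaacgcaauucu

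Widths are given throughout as bases inside peaks, in the order telencephalon, midbrain and hindbrain medium within each origin. That region held 211, 351 and 164 bp in the aNE-derived lists and 802, 504 and 557 bp in the pNE-derived lists. All 3 pNE-derived widths were above all 3 aNE-derived ones. The nearest earlier peak was 342 bp away. The region overlaps HSD17B8, its nearest protein-coding gene. It lies 5865 bp from RXRB, which encodes a retinoid X receptor and is not the nearest gene.

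The day 4 common regions stood at the thin end of a steep series. Among regions with no earlier peak, 104872 were open in 1 day 4 list, 38345 in 2, 15912 in 3, 5055 in 4, 1830 in 5 and 453 in all 6. Among regions open in all 6 day 4 lists, 78808 were open in all 4 earlier lists too, 9706 in 3 of them, 4521 in 2 and 3317 in 1. Just outside the rule on the earlier side, 2956 of those 3317 (89.1%) were open in pNE, 183 in DE, 92 in hPSC and 86 in aNE. Most regions that missed by 1 earlier list had thus already had a peak in pNE on day 2. Just outside on the day 4 side, 621 of the 1830 (33.9%) lacked aNE_T and 543 (29.7%) lacked aNE_H, while 34 (1.86%) lacked pNE_H. The lists differ in length: pNE_H had 302355 peaks on these chromosomes, and the other 5 day 4 lists had 191380 to 211358. The part of list length in these numbers was not tested.

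**Figure D1:**
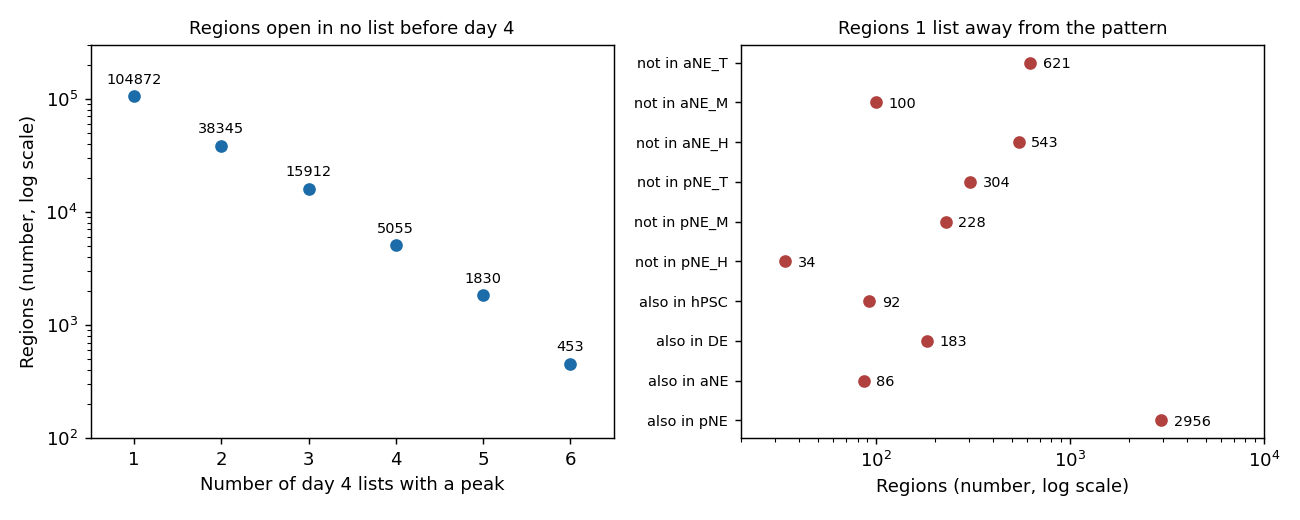
Left, number of merged regions with no peak in hPSC, DE, aNE or pNE, by the number of day 4 lists with a peak (log scale), falling from 104872 to 453. Right, number of regions 1 list away from the pattern (log scale), by the day 4 list they lack or the earlier list they add, with 2956 that were also open in pNE and 34 that lacked pNE_H.

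Which regions met the rule depended on how the lists were cut. With every list reduced to as many of its widest peaks as the shortest list holds, 162041, there were 271 such regions, of which 102 were among the 453. With random thinning to that length there were 224, sharing 86, and with only the widest 50% of each list there were 225, sharing 9. Of 10 other settings tried, 8 were followed region by region: none of the 453 met the rule under all 8, 5 did so under 7 and 41 under at least 6. Of the 8, the setting without pNE_H is met by all 453 by construction, and the random thinning was a single draw. The 5 lay in CLSTN2 (chr3:140432138-140432803), in NRP1 (chr10:33306162-33306499), between genes on chromosome 6 (chr6:14749938-14750528), 22201 bp from CLU (chr8:27574036-27574716) and on chromosome 16 (chr16:51129123-51129548). For the region on chromosome 6, the nearest protein-coding gene was JARID2, over 50 kb away. CLSTN2 encodes a calsyntenin of synaptic membranes, NRP1 a receptor for semaphorins and VEGF, JARID2 a subunit of Polycomb repressive complex PRC2 and CLU the secreted chaperone clusterin.

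The region in CLSTN2 held 596, 568 and 604 bp in the aNE-derived lists and 562, 357 and 593 bp in the pNE-derived lists. The region in NRP1 held 223, 306 and 247 bp in the aNE-derived lists and 213, 273 and 318 bp in the pNE-derived ones. In both, the ranges of the 2 origins overlapped. The region nearest to JARID2 held 438, 381 and 391 bp against 349, 566 and 371 bp, again with overlapping ranges.

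In most lists, day 4 common regions were held by narrow peaks, width being the only measure these lists hold. Their median merged width was 447 bp (interquartile range 326 to 640), above the 306 bp of all merged regions and below the 871 bp of regions open in all 10 lists. A merged region that must hold a peak of 6 lists is wider by construction, so the peaks themselves were compared within each list. The median peak in these regions was 192.5 bp wide in aNE_T, 217 in aNE_M, 199 in aNE_H, 245 in pNE_T, 230 in pNE_M and 320 in pNE_H. Against the median peak of the same list these were ratios of 0.637, 0.761, 0.703, 0.854, 0.861 and 1.13. Their peaks were thus narrower than the typical peak in 5 of the 6 lists and wider in pNE_H. In bulk chromatin, fewer cells with an open region and less opening per cell cannot be told apart, and a peak list shows neither directly.

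Within regions, the bases inside peaks were compared between origins under each medium. In telencephalon medium the pNE-derived list covered more bases than the aNE-derived one in 293 of 453 regions (64.7%), with medians of 252 and 198 bp. Among the 96352 other regions open in all 6 day 4 lists this share was 39.9%. In midbrain medium it was 247 regions (54.5%), with medians of 241 and 219 bp, against 32.7% of the others. In hindbrain medium it was 359 regions (79.2%), with medians of 335 and 206 bp, against 71.4%. The tilt toward the pNE-derived lists was thus present under all 3 media. The other regions tilted toward the aNE-derived lists in telencephalon and midbrain media and toward the pNE-derived list in hindbrain medium. Of these other regions, 78808 were open in all 10 lists. Widths were not compared with other regions open in day 4 lists only, so the tilt is not shown to be particular to the 453.

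Setting each list's bases relative to its own median peak, the mean of the 3 pNE-derived values was above that of the 3 aNE-derived values in 360 regions (79.5%), against 56.7% of the others. The median relative values were 1.02 and 0.766. All 3 pNE-derived widths were above all 3 aNE-derived ones in 95 regions (21.0%, others 7.08%), and the opposite held in 7 (1.55%, others 6.48%). pNE_H held the most bases in 194 regions (42.8%), a share that was 36.8% among regions open in all 10 lists. pNE_T was widest in 86 (19.0%, against 10.5%) and aNE_T in 30 (6.62%, against 20.9%). The narrowest peak any list held was 122 to 126 bp in the aNE-derived lists and 109 to 115 bp in the pNE-derived ones. The part of list length and calling threshold in this tilt was not tested.

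**Figure D2:**
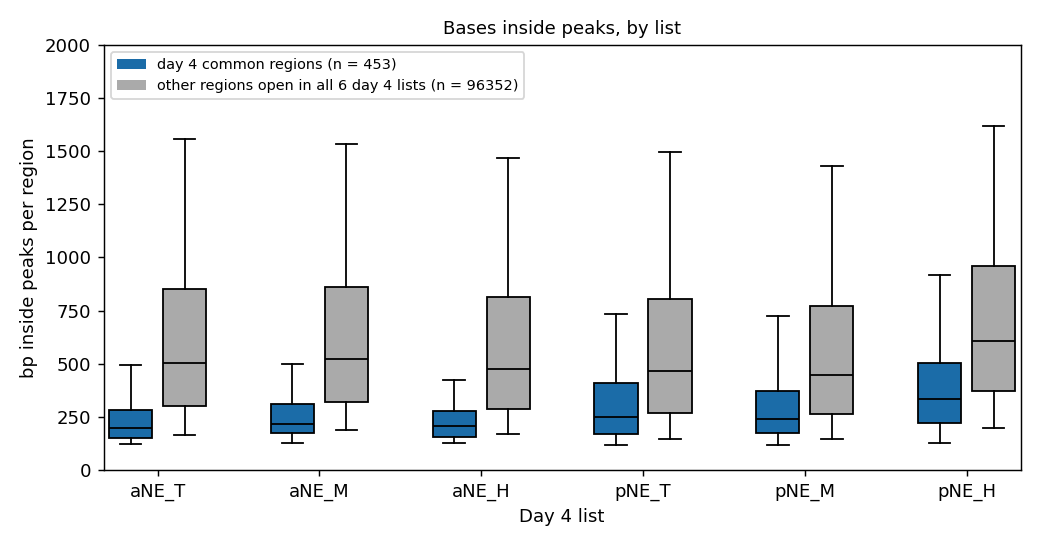
Bases inside peaks per region (bp) in each day 4 list, for the 453 day 4 common regions (blue) and the 96352 other regions open in all 6 lists (grey). Boxes show the quartiles and the median, and whiskers the 5th and 95th percentiles of regions. Medians of the common regions run from 198 bp in aNE_T to 335 bp in pNE_H, below the grey medians of 449 to 609 bp in every list.

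Widths varied among the regions with little order from list to list. Across the 453 regions, Spearman's coefficient between the bases of 2 lists ran from 0.16 for aNE_T with aNE_H to 0.48 for pNE_T with pNE_H. These are descriptions across regions, and the lists share the merged boundaries. A peak of every day 4 list covered the same base in 402 of the 453 regions (88.7%), while in 51 the 6 peaks did not all meet. The median common stretch was 114 bp in the 402 (interquartile range 91.25 to 137), 368 were at least 50 bp and 26 at least 200 bp. The longest was 345 bp.

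The day 4 common regions lay mostly away from gene starts. Within 1 kb of a gene end, at either side of the gene, were 41 regions (9.05%, Wilson 95% interval 6.74% to 12.05%, counting error only), against 11.2% of all merged regions and 27.1% of those open in all 10 lists. Start sites were read on the chromosomes other than 8, which held 424 of the regions. Within 1 kb of one were 25 (5.90%), against 5.49% and 19.4%. The median distance to a start site was 48595 bp, against 35298 bp over all merged regions, and 209 (49.3%) were over 50 kb away, against 39.9%. Inside a protein-coding gene were 208 (45.9%), against 50.0%. The regions open in 5 day 4 lists and no earlier one had 7.10% within 1 kb of a gene end, 2.72% within 1 kb of a start site and 43.6% inside a protein-coding gene.

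The nearest earlier peak was usually some kilobases away. The rule asks only for no overlap, and the smallest gap to an earlier peak was 20 bp. The median gap was 2621 bp, 55 regions (12.1%) had an earlier peak within 500 bp and 56 (12.4%) had none within 10 kb. Regions open in 1 day 4 list only had a median gap of 2477 bp and 17.4% within 500 bp. The widest gap was 48822 bp. By list, the median gap was 4974 bp to hPSC, 3821 to DE, 5530 to aNE and 4124 to pNE, and these lists held 205831, 238994, 162041 and 199638 peaks. A pNE peak lay within 500 bp of 41 regions, a DE peak of 31, an hPSC peak of 29 and an aNE peak of 22.

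The longest stretches common to all 6 day 4 lists, in regions over 1 kb from a gene end, were mostly far from genes or deep inside them. The first, of 345 bp, lay on chromosome 2 (chr2:223656790-223657511) between genes, 54429 bp from SCG2, which encodes secretogranin II of neuroendocrine granules. It held 345, 475 and 513 bp in the aNE-derived lists and 722, 607 and 531 bp in the pNE-derived lists. Every pNE-derived width was above every aNE-derived one, and the nearest earlier peak, in DE, was 6629 bp away. The second, of 313 bp, lay in ADGRL3 (chr4:61767307-61768008), a latrophilin adhesion receptor of synapses. It held 364, 365 and 337 bp against 528, 544 and 580 bp, which again do not overlap between origins. A pNE peak lay 323 bp from this region. The third, of 307 bp, lay 15884 bp from EDN3 (chr20:59341876-59342755), a ligand of endothelin receptors known in neural crest. It held 447, 608 and 347 bp against 623, 767 and 880 bp, so here too the widths of the origins did not overlap.

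The next 7 common stretches measured 293 to 251 bp. Their nearest protein-coding gene ends belonged to SPRY2, CLSTN2, BATF, GRXCR1, CYB5A, LIPC and MRPS28. SPRY2, which encodes an inhibitor of FGF signalling, was 905585 bp away from its region. A pNE peak lay 86 bp from that region, while the nearest DE peak was 48573 bp away. Near a start or gene end, the longest common stretches were 290 bp in GMDS (chr6:1656910-1658203), 199 bp in ERI3 (chr1:44244966-44245481) and 191 bp at 1614 bp from the start of POU4F3 (chr5:146340453-146340777), a POU-homeodomain factor of hair cells. The GMDS region was the widest of the 13, with 426 to 784 bp in 5 lists and 1269 bp in pNE_H. Its nearest start site was that of FOXC1, a forkhead factor, 46995 bp away.

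**Figure D3:**
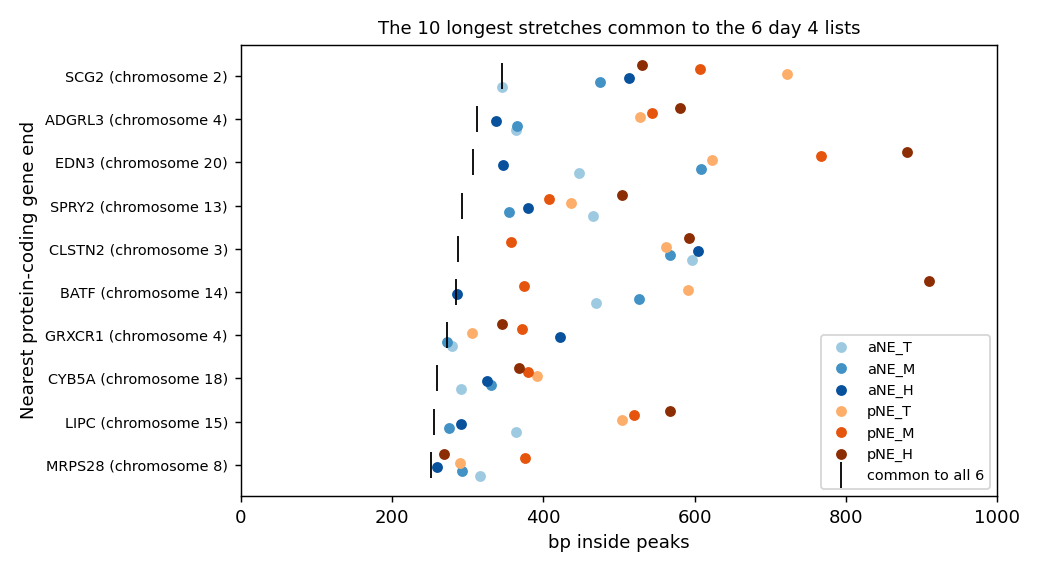
Bases inside peaks (bp) in each day 4 list for the 10 regions with the longest stretch common to all 6 lists, over 1 kb from a gene end, ordered from the longest. Points are lists (blue, aNE-derived; orange to brown, pNE-derived) and the black bar is the common stretch, 345 bp at the top and 251 bp at the bottom.

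By gene, the regions were spread thinly. Of 19122 protein-coding genes, 422 (2.21%) had a day 4 common region in the gene body or within 50 kb of it. As nearest protein-coding gene, 418 genes took all the regions, 386 of them with 1, 29 with 2 and 3 with 3. The 3 were NRXN3, a presynaptic neurexin, LRRC4C, a postsynaptic ligand of netrin-G, and TENM4, a teneurin. All are adhesion proteins of neurons encoded by genes with many regions nearest to them (383, 398 and 465). Of these day 4 common regions, 3 lay in NRXN3 and 2 in LRRC4C, while 0 lay within 50 kb of TENM4. In NRXN3 the regions were chr14:78222028-78222494, chr14:78399413-78399649 and chr14:79801519-79802463. The last was the widest, with 795, 374 and 126 bp in the aNE-derived lists and 879, 821 and 801 bp in the pNE-derived lists. Of the aNE-derived widths there, aNE_T was close to the pNE-derived ones and aNE_H far below them.

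The lists of genes were read as the share of day 4 common regions among the merged regions within 50 kb of their genes, beside the 0.0951% of all merged regions. Axon guidance and neural adhesion genes had 20 of 7964 regions (0.251%), in 16 of 57 genes. As a share of the day 4-only regions around them this was 0.592%, against 0.272% overall. This share was higher for retinoic acid genes (0.722%, 2 regions), WNT genes (0.706%, 3) and midbrain and boundary factors (0.694%, 1). It was also higher for pan-neural progenitor factors (0.616%, 3), and lower for every other list. Besides NRXN3, the axon guidance and neural adhesion genes with a region included EPHB2 with 2. CDH13, CDH20, CNTN1, CNTN6, CNTNAP2, EPHB1, LSAMP, NTM, NTN1, PTPRD, ROBO1, TENM2 and TENM3 had 1 each. The other 41 genes had none, so that the median gene of the list had 0, as in every list.

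EPHB2 encodes a receptor for ephrin-B ligands that steers axons and cell borders. Its first region (chr1:22776113-22776559) held 366, 177 and 305 bp in the aNE-derived lists and 128, 272 and 415 bp in the pNE-derived lists. Its second (chr1:22789401-22789643) held 157, 215 and 186 bp against 115, 154 and 241 bp. Neither showed a tilt to 1 origin. In ROBO1, the receptor for SLIT repellents, the region (chr3:78846782-78847125) held 173, 178 and 237 bp against 163, 290 and 288 bp. In LSAMP, a limbic system adhesion protein, the region (chr3:116230488-116231839) held 147, 496 and 296 bp against 951, 845 and 1171 bp, with all 3 pNE-derived widths above the others, although the 6 peaks shared no base.

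Pan-neural progenitor factors had 3 of 1447 regions (0.207%), at NR2F2, SOX5 and SOX6 and at none of the other 25 genes. NR2F2 encodes the orphan nuclear receptor COUP-TFII, and its region lay 16681 bp from the gene (chr15:96356944-96357402) with 216 common bp. It held 227, 356 and 239 bp in the aNE-derived lists and 445, 420 and 396 bp in the pNE-derived lists, which do not overlap. SOX5 and SOX6 encode SoxD factors that modulate other SOX proteins, and both regions were intragenic. The SOX5 region (chr12:24500738-24501110) held 186, 173 and 271 bp against 203, 373 and 209 bp. The SOX6 region (chr11:16297523-16297937) held 242, 209 and 126 bp against 199, 253 and 399 bp. In both, the origins overlapped.

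Among regional lists, forebrain and eye field factors had 0 of 738 regions and hindbrain factors, HOX genes included, 0 of 859. Midbrain and boundary factors had 1 of 655 (0.153%), 7588 bp from BARHL2, a homeodomain factor (chr1:90724890-90725148). It held 122, 161 and 153 bp in the aNE-derived lists and 199, 251 and 254 bp in the pNE-derived lists, without overlap. An hPSC peak lay 215 bp from this region. Nuclear factor I and early glial genes had 1 of 596 (0.168%), 1991 bp from OLIG2 (chr21:33023395-33023944), which encodes a factor of motor neuron and oligodendrocyte progenitors and lies next to OLIG1. It held 408, 342 and 361 bp in the aNE-derived lists and 143, 226 and 372 bp in the pNE-derived ones, so that pNE_T and pNE_M were the narrowest here, and the 6 peaks shared no base. Proneural, Notch and neuronal differentiation genes had 1 of 1440 (0.0694%), in MYT1L (chr2:1978171-1979465), a zinc finger factor that keeps neurons from other fates. Its widths were 446, 145 and 293 bp against 1083, 275 and 374 bp, overlapping between origins, with no common base and an earlier peak 235 bp away.

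Of the signalling lists, retinoic acid genes had 2 of 833 (0.240%). They were the region given above that overlaps HSD17B8 and lies 5865 bp from RXRB, and 1 in CRABP1 (chr15:78343772-78343955). CRABP1 encodes a cytoplasmic carrier of retinoic acid. The CRABP1 region was narrow in all lists, with 126 to 167 bp. WNT genes had 3 of 1408 (0.213%), in WNT3, at WNT5A and in FZD7, ligands and a receptor. The FZD7 region (chr2:202036663-202036938) held 180, 177 and 185 bp in the aNE-derived lists and 220, 243 and 267 bp in the pNE-derived lists, without overlap. The WNT3 and WNT5A regions overlapped between origins, with 114 to 295 bp and 122 to 206 bp. FGF genes had 1 of 1006 (0.0994%), in FGF10, where the widths ran from 125 bp in pNE_H to 859 bp in pNE_T. The 43 BMP, TGF-beta and SHH genes listed had 0 of 1608, while the receptor genes ACVRL1 and ACVR1B, outside the list, had the same 1 within 50 kb or in the gene.

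Of the lists for other cell types, the 20 pluripotency genes chosen had 0 of 605 regions, the 22 neural crest and surface ectoderm genes 0 of 774 and the mesoderm and endoderm genes 0 of 733, with 24 of 25 genes on these chromosomes. These zeros hold for the listed genes only: ESRRB and EDN3, which are in none of the lists, had 2 and 1 day 4 common regions in the gene or within 50 kb. At the background of 0.0951%, even the largest list without a region, with 1608 regions, would hold fewer than 2, so the zeros and the counts of 1 to 3 cannot be told apart from the background. Peaks at pluripotency and pan-neural promoters did not tell the populations apart. Of 14 promoter windows of pluripotency genes, 13 were open in hPSC and 11 to 13 in the day 4 lists. Of 47 of pan-neural factors, 32 and 31 to 36 were open. Of 22 windows of hindbrain factors, 12, 12 and 11 were open in the aNE-derived lists and 16, 13 and 16 in the pNE-derived ones. Of 28 windows of forebrain and eye field factors, these numbers were 20, 18 and 19 against 17, 19 and 19. Such differences of a few windows were not tested, so the labelled fates were not checked by promoter peaks.

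**Figure D4:**
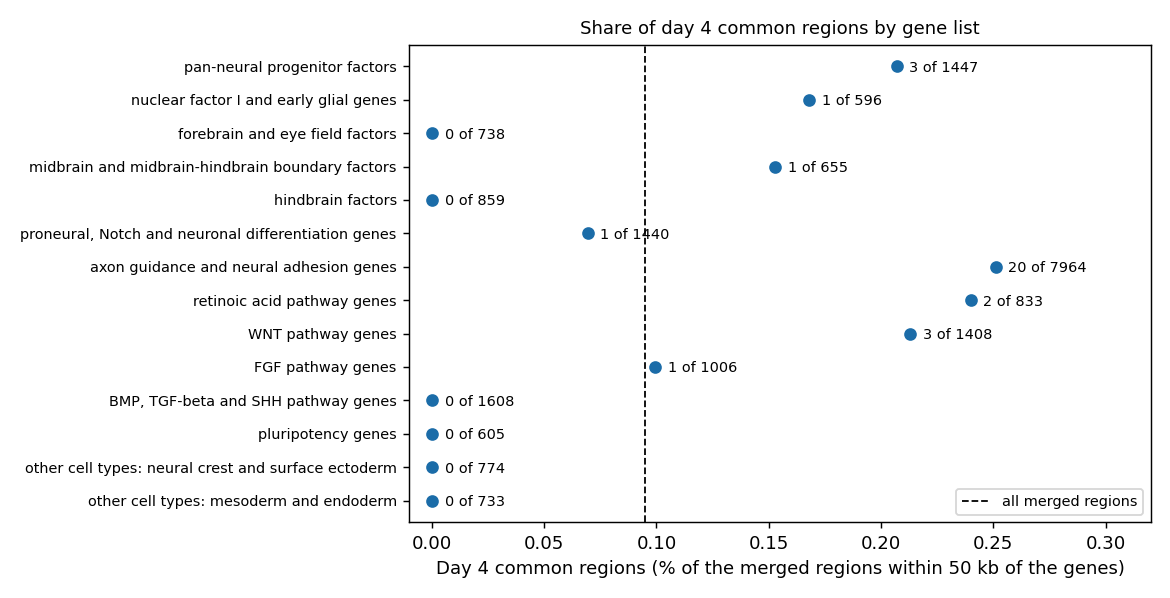
Share (%) of day 4 common regions among the merged regions within 50 kb of the genes of each of 14 lists, with the counts beside each point and the 0.0951% of all merged regions as a dashed line. Axon guidance and neural adhesion genes, at 0.251%, rest on 20 regions, and every other list on 3 or fewer.

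Among genes with 2 day 4 common regions nearest to them, the largest shares of nearest regions belonged to COL6A5, NAA11, PHF21B, TOP1, LOC102724877, H3Y1, GPAT3 and ESRRB, beside EPHB2. For H3Y1 and GPAT3, 0 of these regions lay within 50 kb of the gene. COL6A5 encodes a collagen VI chain, NAA11 an N-terminal acetyltransferase, TOP1 a topoisomerase and ESRRB an orphan nuclear receptor of naive pluripotency. At NAA11 the 2 lay in the gene with middles 901 bp apart (chr4:79236784-79237424 and chr4:79237782-79238227). In the first the widths were 253, 122 and 547 bp in the aNE-derived lists and 567, 483 and 628 bp in the pNE-derived ones, and in the second 170, 249 and 224 bp and 446, 241 and 325 bp. Among gene windows with at least 20 regions, the largest share was that of GNAT1, with 2 of 32 regions (6.25%), followed by GNAI2, SLC38A3 and NAA11 (5.88% each) and COL6A5 and SEMA3F (5.0% each). GNAT1, GNAI2, SLC38A3 and SEMA3F are neighbours on chromosome 3 and shared the same 2 regions (chr3:50201959-50202192 and chr3:50233201-50233526). These 4 genes encode 2 G protein subunits, a glutamine transporter and a secreted semaphorin, and in both regions every list held 117 to 272 bp.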

How the data were processed

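The 10 deposited peak lists, 1 per population, hold a chromosome, a start and an end per peak in hg38 and no other value, per the file headers and contents, so the measured unit is a position (other): no score, count or depth was used. Per the submitters' processing notes the tools included FastQC, Bowtie2, MACS2, bedtools and deepTools, with hg38 as the build. Their versions and thresholds, and how the 3 replicates of a population were combined, are not given in the sources used here. Without values per replicate, no test and no p-value was possible, and library depth is unknown.

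Peaks on chromosomes 1 to 22 were merged where they overlapped by 1 bp or more, and day 4 common regions were taken as described. Gene bodies and start sites came from RefSeq (GRCh38.p14, the same primary assembly as hg38), with 33725 promoter windows of 300 bases, none on chromosome 8. Common stretch, gaps and bases inside peaks were computed with Python 3.11.15, numpy 2.4.6, pandas 2.3.3 and scipy 1.17.1. The code recovered 200 of 200 regions of this kind in simulated lists. The simulated regions were well separated with overlapping peaks, so this checks the code and not how reliable the 453 regions are. Named genes were the 3 of each of the 14 lists with the most regions within 50 kb, the 12 with the most regions by nearest gene end and the 6 with the largest share of windows of at least 20 regions. Named regions were the 10 with the longest common stretch over 1 kb from a gene end and the 3 longest within 1 kb of a start or gene end. One gene that the rule names is not reported here. Other genes and regions described were chosen after their values were seen. The regions, lists and alternatives were chosen with earlier results of these data known.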

Additional observations from a re-analysis of the deposited data

Results flagged for a closer look

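Chromosome X was outside the rule, which covers chromosomes 1 to 22. By the same pattern of peaks, 15 of 16790 merged regions on chromosome X (0.0893%) were open in all 6 day 4 lists and in no earlier list, which none of the comparisons included. The share on chromosomes 1 to 22 was 0.0951%. The 15 were above the floor of 3 regions that a count of 0 allows, which tests nothing about chromosome X.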

How the results depend on the processing

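No paired analysis was possible because each population has 1 list that combines its 3 replicates, and for the same reason no replicate could be left out. The number of regions (453) moved to 225 with the widest 50% of each list, to 271 with the widest peaks at one list length, to 224 with random thinning to that length and to 3409 where a pNE peak was allowed, an alternative added after the near misses were seen. It was 359 with 50% coverage (69 of them among the 453), 447 with windows of 500 bp at peak middles (429), 368 with at least 50 common bp, 402 with at least 1 (also added later), 398 with no earlier peak within 500 bp and 487 without pNE_H, the longest day 4 list. The percentage within 1 kb of a gene end (9.05) was 12.4, 12.2 and 6.70 under the first 3 of these and 3.53 with protein-coding ends only. The median width (447 bp) was 685, 599 and 499.5 bp under the same 3, 541 bp with a pNE peak allowed, 525 bp with 50% coverage, 634 bp with windows of 500 bp, 424.5 bp with at least 50 common bp and 426.5 bp with at least 1. The percentage inside a protein-coding gene (45.9) stayed between 42.3 and 48.9 under all 10 alternatives. Of 330 values for 30 named genes, 130 moved by more than 1.5 times. The cause was not tested beyond the smaller lists that these settings make. The motif search in regions away from promoters, planned for a genome of the build, was not run.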

Other observations

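Along the genome, the day 4 common regions were most frequent on chromosome 14, with 24 of 14709 merged regions (0.163%), and least on chromosome 19, with 3 of 9560 (0.0314%). The median distance between middles of successive regions was 1829083 bp, and 16 regions lay within 50 kb of another. The closest pair lay in KCNMA1, which encodes a calcium-activated potassium channel, with middles 652 bp apart (chr10:77286997-77287404 and chr10:77287628-77288078). The first held 357, 217 and 126 bp inside peaks in the aNE-derived lists and 340, 114 and 407 bp in the pNE-derived lists, which overlap. The second held 142, 222 and 170 bp against 431, 288 and 451 bp, which do not. A pair 3164 bp apart lay outside PHF21B, a PHD finger protein, and a pair 13186 bp apart in EPHB2.

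The merged regions within 10 kb of a day 4 common region, 1856 in all, had states in shares close to those of all merged regions. Of them, 15.8% were open in all 10 lists, against 16.6% of all merged regions. Another 36.5% were open in day 4 lists only but not in all 6, against 34.9%, and 15.2% were open before day 4 and in no day 4 list, against 15.8%. In contrast with the 453, 281 regions were open in the 3 aNE-derived lists only and 7191 in the 3 pNE-derived lists only.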
